A study of Mus musculus with 768 samples.

Results

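Matrix cancer-associated fibroblast (CAF)-like cells, here mCAF-like cells, were divided by their level of *Acta2*, and the cells with much *Acta2* were compared with the cells with little or none. The study sequenced single cells from 2 tumors of 14-week-old MMTV-PyMT mice, where the mouse mammary tumor virus promoter drives the polyoma middle T oncogene in the mammary epithelium. The cells had been sorted by the absence of EpCAM, CD45, CD31 and NG2 and were processed with Smart-seq2, a full-length method without molecular identifiers, at 1 cell per well. Each tumor filled 1 plate of 384 wells, which leaves 2 replicates, the tumors, and makes tumor and plate impossible to tell apart. Whether the tumors came from different mice is not given in the sources used here. There was no treatment and no control group, and both classes of cells came from the same untreated tumors.

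Of 768 wells, 717 had at least 10000 endogenous reads and 1000 genes. A matrix score was the mean log2(RPKM + 1) of 6 genes (*Dcn*, *Lum*, *Mfap5*, *Olfml3*, *Smoc2* and *Serpinf1*), and a vascular score was that of 6 others (*Rgs5*, *Higd1b*, *Kcnj8*, *Rgs4*, *Abcc9* and *Gja4*). RPKM is a read count scaled for gene length and sequencing depth. A matrix score of at least 4 that exceeded the vascular score marked 186 mCAF-like cells, 96 in tumor 1 and 90 in tumor 2. Of these, 81 cells (45 and 36) had an *Acta2* log2(RPKM + 1) of at least 7 and are called Acta2-high. Another 66 (35 and 31) had at most 4 and are called Acta2-low, and 39 (16 and 23) lay between. *Pdgfra*, which encodes a receptor of fibroblasts and was not part of the rule, was read in 97.8% and 66.7% of the Acta2-high cells of tumors 1 and 2 and in 85.7% and 93.5% of the Acta2-low cells.

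*Acta2* encodes α-smooth muscle actin, the actin of smooth muscle and of myofibroblasts, the contractile fibroblasts of wounds and tumors. Its transcription is known to depend on the serum response factor SRF, which binds CArG boxes and works with cofactors released by actin polymerization, and on TGF-β signaling. Fibroblasts of healthy connective tissue carry little *Acta2*, and a universal type marked by *Pi16*, *Dpp4*, *Cd34* and *Ly6c1* is known from many tissues.

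*Acta2* lies on chromosome 19 from 34240336 to 34255585 (mm10). Its levels chose the classes and are a description. In tumor 1, log2(RPKM + 1) of *Acta2* in mCAF-like cells ran from 0 through a median of 6.56 to 11.40, and in tumor 2 from 0 through 6.39 to 11.98. No read was found in 5 cells of tumor 1 and 11 cells of tumor 2. The levels covered the whole range without an empty interval between the classes. The nearest cells to the upper threshold had 7.05 and 6.68 in tumor 1 and 7.18 and 6.99 in tumor 2, and those nearest to the lower one had 3.96 and 4.02, and 3.896 and 4.12. Acta2-high cells made up 46.9% of the mCAF-like cells of tumor 1 (exact binomial 95% confidence interval 36.6 to 57.3%) and 40.0% of tumor 2 (29.8 to 50.9%). These intervals overlap, and they cover counting error only. Among the 496 vCAF-like cells, defined by a vascular score of at least 4 that exceeded the matrix score, 81.6% and 70.2% reached the same *Acta2* level.

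**Figure D1:**
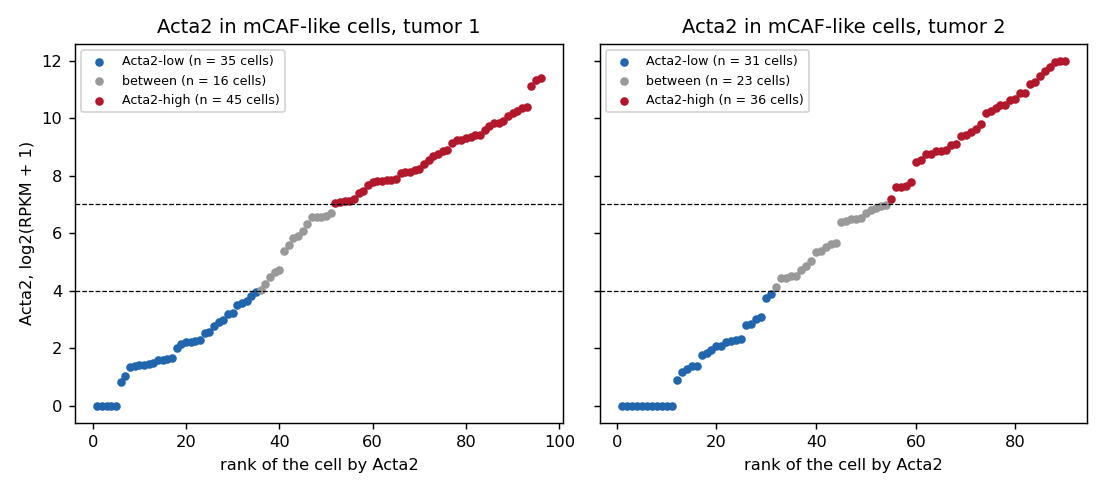
Each point is 1 mCAF-like cell, ranked on the x axis by its *Acta2* level, which is on the y axis as log2(RPKM + 1). Dashed lines mark the thresholds of 4 and 7, and the 186 cells form a continuous series in both tumors.

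The classes differed in depth. The median number of endogenous reads was 287388 in Acta2-high and 227015 in Acta2-low cells of tumor 1, and 237957.5 and 156251 in tumor 2. The median number of genes was 5664 and 5019, and 5569 and 4960. The median share of reads from ERCC spike-ins, which is higher in wells with less cellular RNA, was 6.14% and 7.93%, and 6.23% and 7.49%. The vascular score, used by the rule, had medians of 0.99 and 1.02, and 1.22 and 0.85, but it reached 4 in 5 and 3 Acta2-high cells against 1 and 1 Acta2-low cells. The matrix score, also used by the rule, had lower medians in Acta2-high cells, with 10.07 and 10.51 in tumor 1 and 8.92 and 9.97 in tumor 2, and it was at least 6 in 42 of 45 and 27 of 36 Acta2-high and in 33 of 35 and 27 of 31 Acta2-low cells. For the tests, the reads of all cells in a class were added up within a tumor, giving 4 libraries of 6023997 to 12779098 reads, and the classes were compared by edgeR (quasi-likelihood, tumor as a block).

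Of 11388 genes tested, 0 passed a Benjamini-Hochberg adjusted p of 0.05 in edgeR (0% of the genes). The fit had 1 residual degree of freedom, and the lowest adjusted p was 0.0502. An unadjusted p under 0.05 was found for 380 genes that were higher in Acta2-high cells (3.34%) and 323 that were lower (2.84%). DESeq2 on the same libraries and design called 95 genes higher (0.834%) and 87 lower (0.764%). The calls therefore depend on the test. Of the DESeq2 calls, 180 of 182 had the same direction in both tumors. The test on these libraries favors such genes, so this is no separate support. Over all tested genes, 26.9% were higher and 25.2% lower in both tumors. None of the genes below passed in this edgeR fit, and those said to be called passed in DESeq2. A few of them, such as *Actg2* and *Tagln*, also passed in other edgeR fits, given at the end. Because fewer cells with a transcript and less of it per cell cannot be told apart in summed libraries, shares of cells are given beside the main genes. *Acta2* and the 12 genes of the scores were left out of all counts of genes.

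The contractile genes were higher in Acta2-high cells. Of 27 tested genes of this list, which does not hold *Acta2*, 23 were higher in both tumors against 26.9% of all tested genes, and 0 were lower in both against 25.2%. The median log2 fold change was 1.24 (0.87 in tumor 1 and 1.504 in tumor 2) beside 0.02 over all genes. None of the 27 passed in edgeR, 20 had an unadjusted p under 0.05 in this direction, and 13 were called higher by DESeq2.

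*Tagln*, which encodes the actin-binding protein transgelin, had 587.7 CPM (counts scaled to a common library size) in Acta2-high and 76.0 in Acta2-low cells of tumor 1, and 1543 and 116 in tumor 2. Both Acta2-high libraries lay above both Acta2-low ones. The log2 fold change was 3.34 (standard error 0.28, adjusted p = 0.094 in edgeR and 4.7e-32 in DESeq2). A *Tagln* read was found in 42 of 45 and 33 of 36 Acta2-high cells (93.3%, 81.7 to 98.6%, and 91.7%, 77.5 to 98.2%) and in 17 of 35 and 18 of 31 Acta2-low cells (48.6%, 31.4 to 66.0%, and 58.1%, 39.1 to 75.5%). After every cell was thinned to 42000 reads the shares were 93.3% and 91.2% against 37.5% and 46.7%. Thinning made the read number equal, not the ERCC shares given above. *Tagln* (chromosome 9, 45929628 to 45936058) overlaps *Pcsk7* in the annotation, and Smart-seq2 reads carry no strand.

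*Myl9*, the regulatory light chain of smooth muscle myosin, had 363 and 81.6 CPM in Acta2-high and Acta2-low cells of tumor 1 and 563 and 26.4 in tumor 2, which is a log2 difference of 3.26 (standard error 0.60, adjusted p = 0.400 in edgeR and 1.4e-11 in DESeq2). *Tpm2*, a tropomyosin that lies along actin filaments, had 253 and 51.6 CPM and 524 and 31.2 CPM. Its log2 fold change was 3.17 (standard error 0.49, adjusted p = 0.326 in edgeR and 1.75e-12 in DESeq2). *Tpm1*, a second tropomyosin, had 637 and 305 CPM and 1169 and 181 CPM (adjusted p = 0.560 in edgeR and 7.3e-06 in DESeq2). The summed libraries of the classes did not overlap for any of these genes, and each difference was larger in tumor 2. Single cells did overlap, and *Myl9* reached a log2(RPKM + 1) of 10.89 in Acta2-high and 10.42 in Acta2-low cells of tumor 1. *Mylk*, the kinase that activates this myosin, had 213 and 159 CPM and 251 and 157 CPM, a log2 fold change of 0.56 that passed in neither test (adjusted p = 0.813 in edgeR and 0.816 in DESeq2).

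*Actg2*, γ-smooth muscle actin, had 41.2 and 0.25 CPM in tumor 1 and 438 and 0.84 CPM in tumor 2, which is a log2 difference of 8.52 (standard error 0.49, adjusted p = 0.0502 in edgeR and 7.9e-29 in DESeq2). It was read in few cells. Reads were found in 7 of 45 and 12 of 36 Acta2-high cells and in 2 of 35 and 4 of 31 Acta2-low cells, and 1 cell gave 67.9% of the Acta2-high reads of tumor 1. Actin genes are similar, but no window of 43 bases, the read length, was shared between the annotated transcripts of *Actg2* and *Acta2*, and 0.65% of the *Acta2* windows occurred in *Actg1* and 0.23% in *Actb*. Markers of mature smooth muscle were read in a minority of cells. *Myh11*, smooth muscle myosin heavy chain, had at most 8.09 CPM and was read in 1 of 45 and 9 of 36 Acta2-high and 5 of 35 and 3 of 31 Acta2-low cells, and *Cnn1*, calponin, was read in 3 Acta2-high cells of tumor 1 and in none of the other 3 libraries. *Des*, the intermediate filament desmin, had 7.94 and 2.99 CPM in tumor 1 and 58.9 and 0.84 CPM in tumor 2 (adjusted p = 0.800 in edgeR and 0.037 in DESeq2). *Synpo2*, which encodes an actin-associated protein, was read in 8 of 45 and 8 of 36 Acta2-high cells and in 1 of 35 and 0 of 31 Acta2-low cells (adjusted p = 0.413 in edgeR and 0.0023 in DESeq2).

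*Actb*, the cytoplasmic β-actin, had 6026 and 3024 CPM in tumor 1 and 7721 and 2785 in tumor 2 (log2 fold change 1.23, standard error 0.19, adjusted p = 0.326 in edgeR and 1.7e-06 in DESeq2). *Flna*, the actin crosslinker filamin A, had 1625 and 787 CPM and 2611 and 690 CPM (adjusted p = 0.394 in edgeR and 1.3e-06 in DESeq2). Further genes here and in the lists below, such as *Ctgf*, *Inhba*, *Dpt* and *Mmp11*, were, like *Des* and *Synpo2*, named after their values were seen, since DESeq2 called them. *Actn1* (α-actinin) had a log2 fold change of 1.502, *Csrp1* 1.81, *Vcl* (vinculin of focal adhesions) 1.24 and *Cnn2* 1.26. Each was higher in both tumors, with adjusted p values between 0.337 and 0.498 in edgeR and between 1.8e-05 and 0.0125 in DESeq2.

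**Figure D2:**
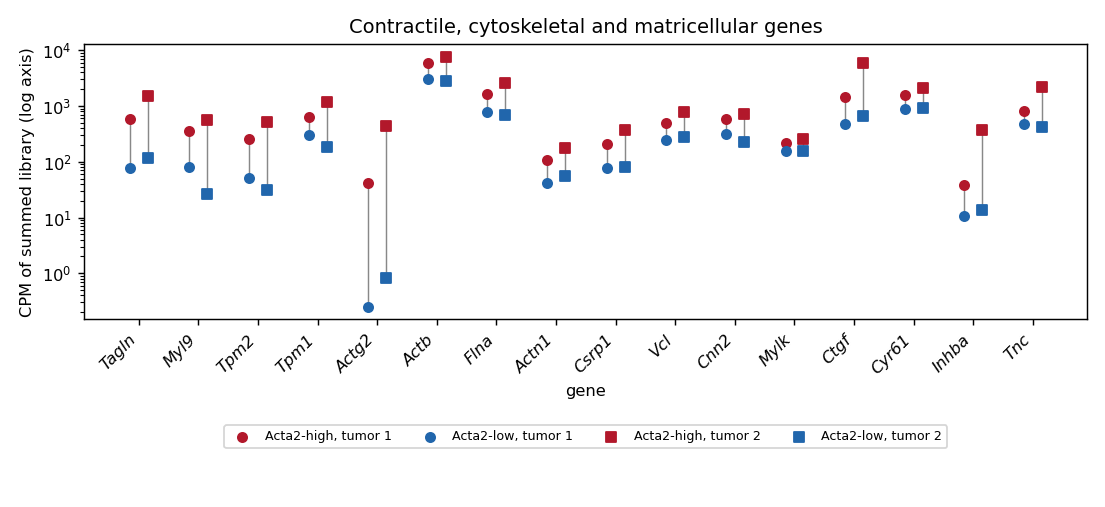
The y axis gives CPM of the summed library on a log scale for 16 genes, with circles for tumor 1, squares for tumor 2, red for Acta2-high and blue for Acta2-low cells. The red symbol lies above the blue one in every pair, by least for *Mylk* and by most for *Actg2*.

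The promoters of some of these genes are shown because SRF sites are the known regulatory element of the contractile genes. Sequences are from RefSeq (GRCm38.p6), 5′ to 3′ on the gene's strand, up to the first base that GENCODE annotates as exon. Capitals mark CArG matches, which are CC and GG around a core of 6 bases that are A or T with up to 1 exception, and MCAT matches (CATTCC or its complement GGAATG). Both strands were covered, since the CArG pattern reads alike on both, and no matches shown overlap.
*Vcl* chr14:20929148-20929397, plus strand: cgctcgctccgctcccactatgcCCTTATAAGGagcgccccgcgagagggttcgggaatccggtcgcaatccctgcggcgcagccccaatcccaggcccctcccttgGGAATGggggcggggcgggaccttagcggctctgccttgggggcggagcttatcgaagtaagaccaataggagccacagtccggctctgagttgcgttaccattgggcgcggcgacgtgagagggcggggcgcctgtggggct
*Myl9* chr2:156775214-156775419, plus strand: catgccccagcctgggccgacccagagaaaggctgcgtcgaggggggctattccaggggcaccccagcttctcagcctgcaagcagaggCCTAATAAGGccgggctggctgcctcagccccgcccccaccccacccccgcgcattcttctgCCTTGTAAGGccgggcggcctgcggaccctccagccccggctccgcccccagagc
*Cnn2* chr10:79988350-79988583, plus strand: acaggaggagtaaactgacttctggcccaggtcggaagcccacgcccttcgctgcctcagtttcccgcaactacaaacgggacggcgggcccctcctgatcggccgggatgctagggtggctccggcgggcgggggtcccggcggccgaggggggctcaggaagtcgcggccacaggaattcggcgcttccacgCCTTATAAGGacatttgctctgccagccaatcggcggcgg
*Cd34* chr1:194938571-194938818, plus strand: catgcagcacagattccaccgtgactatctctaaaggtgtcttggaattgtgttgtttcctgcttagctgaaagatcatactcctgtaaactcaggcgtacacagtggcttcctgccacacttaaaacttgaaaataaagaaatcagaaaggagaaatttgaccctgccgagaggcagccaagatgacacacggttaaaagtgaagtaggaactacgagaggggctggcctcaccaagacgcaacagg
*Vcl*, *Cnn2* and *Myl9* were picked because they hold a CArG match, which 4 of the 32 promoters of the contractile list do, and *Cd34* is an example from the universal list without one. The windows of *Tpm1*, *Tpm2*, *Flna*, *Actn1* and *Csrp1* hold none, and that of *Fbln2*, of the universal list, holds 1. *Acta2* itself has 2 CArG matches with 1 exception each, 84 and 34 bases before the start in the table, but 217 of its 250 bases are annotated as exon and are not printed. Over 250 bases before the start, a CArG match with up to 1 exception was present in 12.5% of the 32 promoters of the contractile list, in 5.0% of the 20 of the universal fibroblast list and in 8.59% of all 32851 promoters. Without an exception the shares were 12.5%, 0% and 1.47%. The table held 26 of 30 and 19 of 23 genes of these lists. MCAT was found in 31.3%, 15.0% and 12.6%. These are matches of letters and show no binding.

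In single cells, the mean log2(RPKM + 1) of the 27 contractile genes ran from 2.82 through a median of 4.65 to 6.43 in Acta2-high cells of tumor 1, and from 0.78 through 3.41 to 5.22 in Acta2-low cells. In tumor 2 it ran from 2.80 through 5.24 to 7.50 and from 1.07 through 3.49 to 4.95. The ranges overlap, with 10 of 45 and 22 of 36 Acta2-high cells above every Acta2-low cell of their tumor. These cells gave 40.1% and 80.5% of the reads of the list in the Acta2-high class. The cells between the thresholds had medians of 3.94 and 3.82, between those of the other classes. Single cells went against the pattern, and a *Tagln* log2(RPKM + 1) of at least 7 was found in 4 of 35 and 6 of 31 Acta2-low cells beside 27 of 45 and 30 of 36 Acta2-high cells.

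The genes whose levels followed *Acta2* most closely over all mCAF-like cells were from the same machinery. Ranked by the lower of the Spearman coefficients in the 96 cells of tumor 1 and the 90 cells of tumor 2, the first 8 were *Tagln* (0.64 and 0.63), *Actb* (0.62 and 0.65), *Tpm2* (0.57 and 0.71), *Myl9* (0.54 and 0.69), *Myl12a* (0.52 and 0.53), *Tpm1* (0.52 and 0.75), *Flna* (0.52 and 0.66) and *Myl6* (0.53 and 0.51). *Myl12a* and *Myl6* encode light chains of non-muscle myosin. Cells of a tumor share a plate and differ in depth, so these coefficients are a description.

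SRF cofactors and targets and the targets of YAP, a coactivator that responds to tension, formed a list of 13 tested genes, of which 10 were higher in both tumors and 1 was lower. For this list and those that follow, the shares over all tested genes are again 26.9% higher and 25.2% lower in both tumors, and 0.834% and 0.764% called higher and lower by DESeq2. The median log2 fold change was 0.85, and DESeq2 called 4 higher and 0 lower. *Ctgf*, a matricellular YAP target, had 1426 and 485 CPM in tumor 1 and 6025 and 658 CPM in tumor 2 (log2 fold change 2.38, standard error 0.42, adjusted p = 0.394 in edgeR and 1.4e-11 in DESeq2). A single cell gave as much as 62.4% of the *Ctgf* reads of a library. Reads of *Ctgf* were found in 88.9% and 88.9% of Acta2-high and in 80.0% and 87.1% of Acta2-low cells. After thinning the shares were 77.8% and 85.3% against 71.9% and 60.0%. *Cyr61*, its relative, had 1598 and 896 CPM and 2106 and 909 CPM (adjusted p = 0.400 in edgeR and 0.00053 in DESeq2). *Srf* itself had 21.7 and 10.1 CPM and 42.97 and 21.3 CPM, a log2 fold change of 1.06 that passed in neither test (adjusted p = 0.827 in edgeR and 0.994 in DESeq2).

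The TGF-β genes were mixed. Of 22 tested ligands, receptors, binding proteins and mediators, 11 were higher and 6 lower in both tumors (median log2 fold change 0.30), and DESeq2 called 3 higher and 2 lower. *Inhba*, which encodes an activin subunit, had 38.8 and 10.7 CPM in tumor 1 and 369 and 13.8 CPM in tumor 2 (adjusted p = 0.560 in edgeR and 9.8e-07 in DESeq2). *Ltbp2* had 97.2 and 15.7 CPM and 429 and 80.7 CPM, whereas *Ltbp1*, which anchors latent TGF-β in the matrix, had 35.9 and 241 CPM and 106 and 236 CPM. A single cell gave as much as 77.1% of the *Ltbp2* reads of a library. The adjusted p values of *Ltbp2* and *Ltbp1* were 0.142 and 0.560 in edgeR and 3.0e-11 and 0.00030 in DESeq2. The coreceptor *Tgfbr3* was lower, with 121 and 319 CPM and 96.0 and 252 CPM (log2 fold change -1.40, standard error 0.22, adjusted p = 0.338 in edgeR and 0.00052 in DESeq2). *Tgfb1* had 12.9 and 7.71 CPM and 23.5 and 11.9 CPM, and passed in neither test (adjusted p = 0.941 in edgeR and 0.9995 in DESeq2).

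Among 24 matricellular and secreted genes of myofibroblasts, 13 were higher and 5 lower in both tumors, with a median log2 fold change of 0.20. DESeq2 called 5 of them higher and 0 lower. *Tnc*, tenascin C, had 819 and 479 CPM in tumor 1 and 2235 and 423 CPM in tumor 2 (log2 fold change 1.59, standard error 0.42, adjusted p = 0.634 in edgeR and 0.00016 in DESeq2). *Timp3*, an inhibitor of metalloproteinases, had 1329 and 554 CPM and 1400 and 677 CPM (adjusted p = 0.337 in edgeR and 3.4e-05 in DESeq2). Other genes of this list had the opposite direction. *Postn*, periostin, had 9629 and 12334 CPM and 8264 and 14125 CPM (log2 fold change -0.57, adjusted p = 0.700 in edgeR and 0.171 in DESeq2), and *Fn1*, fibronectin, had 3174 and 3483 CPM and 4798 and 5558 CPM, with a direction that turned in 3 alternatives. Among these was the scaling by ERCC reads, where *Fn1* had 0.36 but the median of all tested genes rose to 0.56.

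*Col1a1*, the main fibrillar collagen chain, had 16724 and 14281 CPM in tumor 1 and 11685 and 13737 CPM in tumor 2, opposite directions with a log2 fold change of 0.00 (standard error 0.17). *Col3a1* had 17916.5 and 24342 CPM and 12765 and 21685 CPM, lower in both tumors (log2 fold change -0.60, standard error 0.155), and passed in neither test (adjusted p = 0.631 in edgeR and 0.0911 in DESeq2). Of 19 interstitial collagens, 9 were higher and 3 lower in both tumors, the median was 0.14 (0.33 and -0.23), and DESeq2 called 1. In single cells the mean log2(RPKM + 1) of these 19 genes had higher medians in Acta2-high cells of both tumors, with 6.49 against 5.57 and 6.27 against 5.81. The gene called was *Col8a1*, a short-chain collagen of vessel walls (chromosome 16, 57624256 to 57754737), with 1483 and 506 CPM and 1835 and 715 CPM (log2 fold change 1.46, standard error 0.18, adjusted p = 0.186 in edgeR and 6.0e-09 in DESeq2). The median of 16 basement membrane genes was -0.12 and that of 19 collagen-processing genes 0.36, with 1 and 0 genes called by DESeq2.

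Common CAF markers differed among themselves. *Pdgfra* was lower in Acta2-high cells, with 527 and 1007 CPM in tumor 1 and 251 and 707 CPM in tumor 2 (log2 fold change -1.21, standard error 0.23, adjusted p = 0.400 in edgeR and 0.00019 in DESeq2). *Pdgfrb*, the other platelet-derived growth factor receptor, had 1212 and 923 CPM and 917.7 and 918.0 CPM. *Fap*, fibroblast activation protein, had 284 and 196 CPM and 184 and 327 CPM, and *S100a4*, also called FSP-1, had 158 and 35.7 CPM and 319 and 488 CPM. *Fap* and *S100a4* were higher in Acta2-high cells of tumor 1 and lower in those of tumor 2. Of 10 genes the study names for mCAFs and the rule did not use, 1 was higher and 5 lower in both tumors. The matrix genes of the rule, given as a description, included *Dcn* with a log2 fold change of -1.33, *Lum* with -1.11 and *Mfap5* with -0.17.

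Most genes of universal fibroblasts were lower in Acta2-high cells. Of 23 tested genes, 16 were lower in both tumors against 25.2% of all genes, 4 (*Anxa3*, *Col15a1*, *Procr* and *Fbln2*, named after their values were seen) were higher in both against 26.9%, and 13 were lower by at least 2-fold in both against 2.9%. The median log2 fold change was -1.75 (-1.18 in tumor 1 and -1.76 in tumor 2), 14 genes had an unadjusted p under 0.05 in this direction, 0 passed in edgeR and DESeq2 called 13 lower and 0 higher. The summed level of the list differed by less. It was 6447 CPM in Acta2-high and 8510 in Acta2-low cells of tumor 1, and 7400 and 10127 in tumor 2.

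*Scara5*, a ferritin receptor (chromosome 14, 65666403 to 65764826), had 14.4 CPM in Acta2-high and 128 in Acta2-low cells of tumor 1, and 37.0 and 498 in tumor 2. A *Scara5* read was found in 13.3% and 25.0% of Acta2-high and in 28.6% and 38.7% of Acta2-low cells, and 1 cell gave 74.1% of the Acta2-low reads of tumor 2. *Scara5* is not on the universal list, and its log2 fold change was -3.45 (standard error 0.29, adjusted p = 0.094 in edgeR and 8.4e-22 in DESeq2). *Cd34*, a sialomucin of fibroblasts and endothelium, had 53.8 and 282 CPM and 61.6 and 572 CPM, which is a log2 difference of -2.80 (standard error 0.30, adjusted p = 0.142 in edgeR and 4.6e-16 in DESeq2). Reads of *Cd34* were found in 24.4% and 22.2% of Acta2-high cells and in 31.4% and 41.9% of Acta2-low cells, and these shares had overlapping intervals. Among cells with a vascular score under 1 the log2 fold change of *Cd34* was -1.20. *Ly6a*, the surface protein Sca-1, had 275 and 943 CPM and 351 and 1156 CPM (log2 fold change -1.75, standard error 0.19, adjusted p = 0.142 in edgeR and 6.5e-12 in DESeq2). Its shares of cells were 62.2% and 55.6% against 60.0% and 67.7%, and 1 cell gave 29.3% and 37.6% of the Acta2-low reads. In single cells of tumor 1 the median log2(RPKM + 1) of *Ly6a* was 7.18 in Acta2-high and 5.70 in Acta2-low cells, against the direction of the summed libraries, and in tumor 2 it was 3.02 and 7.21.

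*Ly6c1* had 38.9 and 178 CPM and 32.8 and 376 CPM, *Dpt* (dermatopontin) 87.7 and 417 CPM and 36.4 and 440 CPM, and *Pi16* 251 and 568 CPM and 67.6 and 444 CPM. *Cd55*, a complement regulator, had 19.7 and 76.4 CPM and 16.1 and 332 CPM, with 65.8% of the Acta2-low reads of tumor 2 from 1 cell. *Clec3b* and *Dpp4* were read in few cells, *Clec3b* in 3 and 1 Acta2-high cells against 9 and 4 Acta2-low cells, and *Dpp4* in 2 and 0 against 4 and 2. *Igfbp6*, a binding protein of insulin-like growth factors, was read in most cells and had 123 and 282 CPM and 148 and 364 CPM. Among cells with a vascular score under 1 the log2 fold changes of *Ly6c1*, *Dpt* and *Dpp4* were -1.62, -2.04 and -1.08, beside -2.85, -2.92 and -4.98 in all cells. All the genes named here were lower in the summed libraries of both tumors, with adjusted p values of 0.234 to 0.634 in edgeR and under the threshold in DESeq2. Shares of cells with a read did not always follow. In tumor 1 they were higher in Acta2-high than Acta2-low cells for *Igfbp6* (91.1% and 71.4%), *Dpt* (33.3% and 28.6%) and, slightly, *Ly6c1* (37.8% and 37.1%). In tumor 2 they were lower (66.7% and 80.6%, 22.2% and 45.2%, 27.8% and 35.5%). *Pi16* and *Cd55* had lower shares in Acta2-high cells of both tumors.

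A few cells carried much of this difference. The mean log2(RPKM + 1) of the 23 universal genes had medians of 2.58 in Acta2-high and 2.25 in Acta2-low cells of tumor 1, and 2.23 and 2.69 in tumor 2. Its highest values were 4.64 and 7.46, and 3.57 and 7.45. In the Acta2-low class, 4 of 35 and 6 of 31 cells lay above every Acta2-high cell of their tumor, and these cells gave 31.9% and 54.0% of the class's reads of the list. The medians of the classes thus lay close together and in opposite order in the tumors, while the contractile medians were higher in Acta2-high cells of both.

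**Figure D3:**
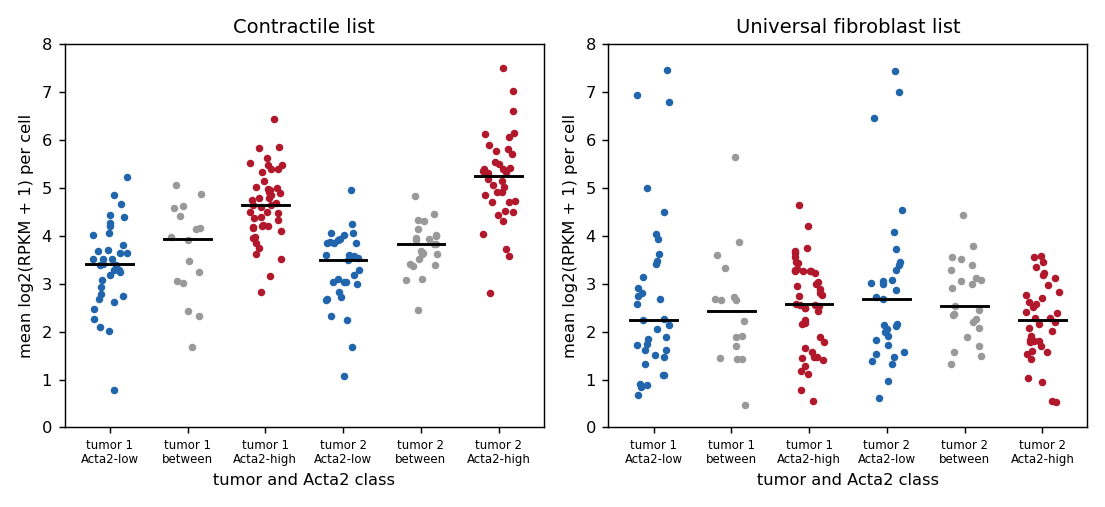
Each point is 1 cell, the y axes give the mean log2(RPKM + 1) of the 27 contractile genes (left) and the 23 universal fibroblast genes (right), and bars mark medians by tumor and class. The contractile medians are 4.65 and 5.24 in Acta2-high against 3.41 and 3.49 in Acta2-low cells, while on the right 4 and 6 Acta2-low cells lie above all Acta2-high cells.

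*Bmp7*, a bone morphogenetic protein, and *Mmp3*, stromelysin, complete the 5 genes with the smallest edgeR p among those that were lower in Acta2-high cells of both tumors and had a read in 25% or more of a class's cells. *Bmp7* had 5.58 and 44.3 CPM in tumor 1 and 9.35 and 89.8 CPM in tumor 2 (log2 fold change -3.12, standard error 0.41, adjusted p = 0.234 in edgeR and 1.7e-05 in DESeq2). It was read in 8.9% and 8.3% of Acta2-high cells (2.5 to 21.2% and 1.8 to 22.5%) and in 37.1% and 35.5% of Acta2-low cells (21.5 to 55.1% and 19.2 to 54.6%). *Mmp3* had 111 and 2420 CPM and 397 and 3123 CPM, but 1 cell gave 98.7% of its reads in the Acta2-low cells of tumor 2. A *Mmp3* read was found in 35.6% and 30.6% of Acta2-high and in 45.7% and 16.1% of Acta2-low cells. The shares of tumor 2 thus went against its summed libraries. Among cells with a vascular score under 1 the log2 fold change of *Mmp3* was -0.11 against -3.71. *Mmp13* and *Mme* were lower in both tumors with log2 fold changes of -0.61 and -1.69, *Mmp13* called by neither test and *Mme* by DESeq2 (adjusted p = 0.773 in edgeR and 0.0308 in DESeq2). The direction of *Mmp13* turned to 2.92 with a vascular score under 1, 2.00 with a matrix score of at least 6 and 2.58 without cells with an epithelial read, and 1 cell gave 97.2% of its Acta2-low reads in tumor 2. *Mmp2* and *Mmp11*, the latter called stromelysin-3, had log2 fold changes of -0.84 and -1.71 (adjusted p = 0.401 and 0.234 in edgeR and 0.0019 and 2.9e-09 in DESeq2). Of 14 metalloproteinases and inhibitors, 3 were called higher (*Mmp9*, *Mmp10* and *Timp3*) and 3 lower by DESeq2. In at least 1 library a single cell gave 100% of the *Mmp9* reads and 99.9% of the *Mmp10* reads.

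**Figure D4:**
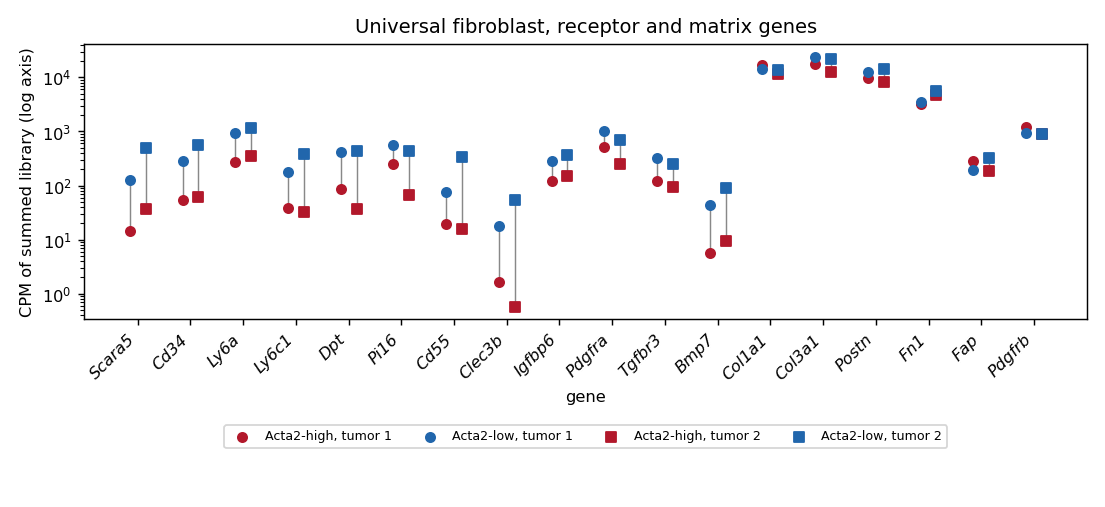
The y axis gives CPM of the summed library on a log scale for 18 genes, with circles for tumor 1, squares for tumor 2, red for Acta2-high and blue for Acta2-low cells. The blue symbol lies above the red one in both tumors for the 12 genes from *Scara5* to *Bmp7*, while *Col1a1*, *Fap* and *Pdgfrb* differ by less or in opposite directions.

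The inflammatory CAF genes gave no common direction. Of 26 tested genes, 4 were higher and 9 lower in both tumors, the median log2 fold change was -0.41 (-0.15 and -0.71), and DESeq2 called 0 higher and 2 lower. The median turned to 0.12 when libraries were scaled by their ERCC reads. That scaling raised the median of all tested genes to 0.56, from 0.02, so the list stayed below it. *Cxcl12*, a chemokine of fibroblasts, had 312 and 435 CPM in tumor 1 and 68.1 and 171 CPM in tumor 2 and passed in neither test (adjusted p = 0.723 in edgeR and 0.154 in DESeq2). *Cxcl14* had 712 and 810 CPM and 447 and 414 CPM. *Il6* and *Ccl2* went in opposite directions in the tumors, and 1 cell gave 64.1% of the *Il6* reads and 67.1% of the *Ccl2* reads of the Acta2-high cells of tumor 1.

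Integrins and focal adhesion genes had a median log2 fold change of 0.57, with 11 of 19 higher and 1 lower in both tumors and 1 called higher by DESeq2. Wnt genes had a median of -0.43 over 14 genes, of which 2 were higher and 6 lower in both tumors and 1 was called lower by DESeq2. The median was 0.24 for 22 immediate early genes and -0.19 for 17 ribosomal protein genes, with none called by either test. Of 13 cell cycle genes, 3 were higher and 1 lower in both tumors, with medians of -0.48 and 2.11 in the tumors.

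**Figure D5:**
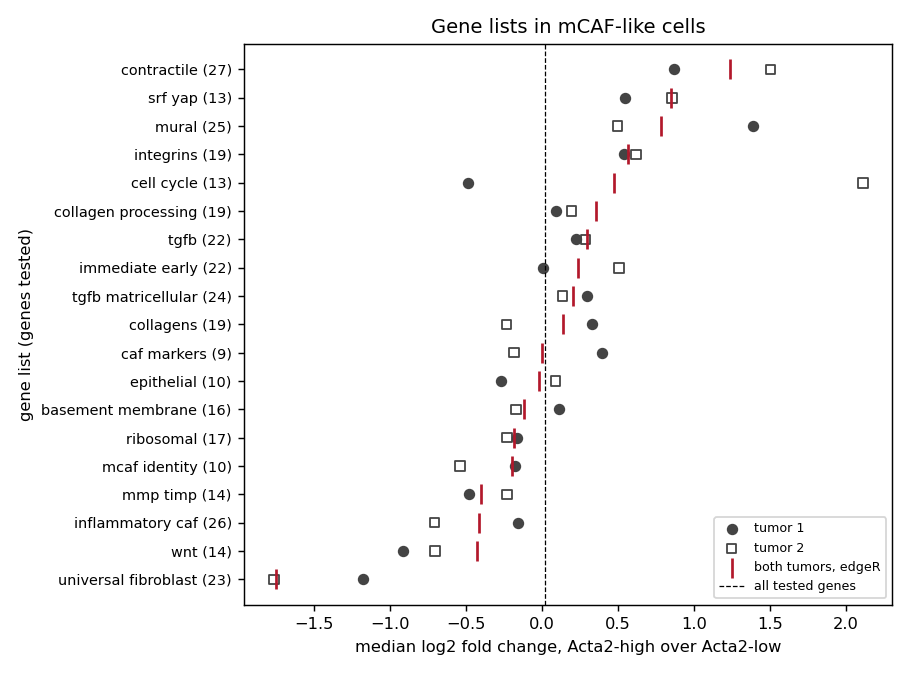
The x axis gives the median log2 fold change of Acta2-high over Acta2-low cells for the lists on the y axis, which have at least 9 tested genes each, with circles for tumor 1, squares for tumor 2 and a red bar for both. The dashed line at 0.02 is the median of all tested genes, and the contractile list (1.24) and the universal fibroblast list (-1.75) lie farthest from it on either side.

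Markers of pericytes and vascular smooth muscle also differed between the classes. Of 25 tested mural genes that the rule did not use, 13 were higher and 3 lower in both tumors, 10 were higher by at least 2-fold in both against 3.57% of all genes, and DESeq2 called 6 higher and 1 lower. The median log2 fold change was 0.78 (1.39 in tumor 1 and 0.50 in tumor 2). The summed level of 26 measured mural genes was 3425 CPM in Acta2-high and 2204 in Acta2-low cells of tumor 1 and 2729 and 2127 in tumor 2, and none of them was at 0. *Mcam* (CD146) had 338 and 57.7 CPM and 301 and 72.0 CPM (log2 fold change 2.31, standard error 0.26, adjusted p = 0.147 in edgeR and 1.9e-10 in DESeq2). *Cspg4*, which encodes NG2, had 132 and 42.2 CPM and 266 and 58.1 CPM (log2 fold change 1.92, standard error 0.28, adjusted p = 0.276 in edgeR and 3.6e-05 in DESeq2). *Flt1*, a receptor of vascular endothelial growth factor that is not on the mural list, had 22.5 and 1.62 CPM and 148 and 12.1 CPM, with 60.8% and 60.7% of the Acta2-high reads from 1 cell in each tumor (adjusted p = 0.142 in edgeR and 2.3e-08 in DESeq2). A *Flt1* read was found in 33.3% and 36.1% of Acta2-high and in 31.4% and 41.9% of Acta2-low cells.

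In the cells with a vascular score under 1 (25 and 14 Acta2-high, 17 and 19 Acta2-low), the median log2 fold change was 1.29 for the contractile list and 0.24 for the mural list, beside 1.24 and 0.78 in all cells. *Tagln* had a log2 fold change of 3.38 there and *Mcam* 3.30, *Cspg4* 2.03 and *Flt1* 1.63. *Mylk* turned to -0.10. The universal list had a median of -1.20.

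Markers of other cell types were also summed. The luminal epithelial list summed to 104 to 260.5 CPM over the 4 libraries, with *Csn1s1*, *Csn2* and *Wap* at 0 in all of them. The myoepithelial list without *Acta2* summed to 96.1 and 279 CPM in tumor 1 and 91.9 and 22.5 CPM in tumor 2, with *Dsg3* at 0. One of its genes, *Cdh3*, which encodes P-cadherin and was chosen after its values were seen, was read in 12 of 45 and 11 of 36 Acta2-high cells and in 0 of 35 and 2 of 31 Acta2-low cells. Of the 7 tested genes of the myoepithelial list, 2 were higher and 0 lower in both tumors. Their median log2 fold change was -2.09 in tumor 1 and 8.24 in tumor 2. Endothelial genes summed to 60.4 to 112 CPM with *Cdh5* and *Tie1* at 0, and leukocyte genes to 13.4 to 18.5 CPM with *Ptprc* and *Cd3e* at 0. Cells without any read of *Epcam*, *Krt8*, *Krt18*, *Krt5* or *Krt14* numbered 31 of 45 and 19 of 36 in the Acta2-high and 26 of 35 and 23 of 31 in the Acta2-low class. In these cells the contractile median was 1.29 and the universal median -1.75. The summed level of the developmental CAF genes was 306 and 142 CPM in tumor 1 and 182 and 181 CPM in tumor 2, and that of adipogenic genes 937 and 1734 CPM and 498 and 715 CPM. The part of these markers, of depth and of the vascular genes in the other differences was not tested further.

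In vCAF-like cells the same *Acta2* thresholds gave 378 Acta2-high and 61 Acta2-low cells, and the difference between the 2 *Acta2* contrasts was tested in 8 libraries. Of 11512 genes, 0 passed in edgeR (0%), with 347 and 505 at an unadjusted p under 0.05 in the upward and downward direction, and DESeq2 called 67 genes (0.582%) with a higher and 150 (1.3%) with a lower fold change in mCAF-like cells. *Tagln* had 798 and 40.4 CPM in Acta2-high and Acta2-low vCAF-like cells of tumor 1 and 635 and 15.2 CPM in tumor 2. Its fold change in mCAF-like cells was lower by 1.21 on the log2 scale with a standard error of 0.85, and the difference passed in neither test (adjusted p = 0.832 in edgeR and 0.735 in DESeq2). *Tpm1* differed by -0.15 with a standard error of 0.55 and *Ctgf* by 0.33 with 0.66.

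The genes with the smallest p for a higher fold change in mCAF-like cells included *Nrp2*, *Rhob*, *Rhoq* and *Rasl12*. The difference of *Rasl12*, 2.99, turned to -2.82 among cells with the other score under 1. *Nrp2*, a semaphorin and growth factor coreceptor, had 37.0 and 7.47 CPM and 68.6 and 13.8 CPM in mCAF-like cells and 59.1 and 114 CPM and 82.0 and 127 CPM in vCAF-like cells, a difference of 3.14 (standard error 0.46, adjusted p = 0.391 in edgeR and 4.1e-05 in DESeq2). *Rhob*, a small GTPase, had 170 and 148 CPM and 215 and 167 CPM against 227 and 597 CPM and 258 and 699 CPM, a difference of 1.72 (standard error 0.26, adjusted p = 0.391 in edgeR and 3.5e-06 in DESeq2). Those with the smallest p in the other direction were *Cd34*, *Cpq*, *Csgalnact1*, *Cdh13* and *Ackr3*. *Cd34* had 0 to 2.21 CPM in the vCAF-like libraries, so its difference of -7.07 (standard error 0.72, adjusted p = 0.391 in edgeR and 0.00029 in DESeq2) rests on a gene that these cells hardly carried. *Ackr3*, a scavenger receptor of CXCL12, had 63.9 and 144 CPM and 146 and 466 CPM in Acta2-high and Acta2-low mCAF-like cells and 63.6 and 0.22 CPM and 22.4 and 0.27 CPM in vCAF-like cells. In mCAF-like cells *Ackr3* was nevertheless read in more Acta2-high cells (37.8% and 50.0%) than Acta2-low cells (25.7% and 32.3%), and 1 cell gave 45.4% and 59.1% of the Acta2-low reads.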

How the data were processed

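Libraries of 768 wells, 384 per tumor, were mapped to their tumor by the plate in the labels. Single-end reads of 43 bases had been aligned by the authors with STAR (mm10) and assigned to genes of RefSeq. The deposited counts are whole reads per gene, not normalized. The deposited RPKM were computed by the authors with rpkmforgenes, and served for the rule, levels per cell and a filter (mean RPKM of at least 1). Each table has 24490 endogenous genes beside 92 ERCC spike-ins, and 0 columns were left unused. How reads matching several genes were handled is not given in the sources used here.

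Counts were summed per tumor and class. They were tested with edgeR 4.0.16 in R 4.3.3 (TMM, glmQLFit, glmQLFTest, tumor as a block, adjusted p of 0.05) and, as an alternative, DESeq2 1.42.0. High and low cells of 1 tumor share the animal, which pairs the libraries; their deviations from the class means correlated by 0.0903. Scripts were tested on simulated data. CPM are counts scaled to TMM-adjusted library sizes. The cells had 14602 to 539238 reads. No doublet caller was run. To compare shares of cells, wells were thinned to 42000 reads, which left out 0 and 3 cells of tumor 1 and 2 and 1 of tumor 2 (Acta2-high and Acta2-low).

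The members and the gene lists were chosen with earlier results of these data known. Named genes were the 12 with the smallest edgeR p in each direction among those that passed, with the same sign in both tumors and a read in 25% of the cells of a class (or the first 5 where under 5 passed), 44 set genes, list members that passed, the 8 most like *Acta2*, and 5 per direction for the difference from vCAF-like cells. No list member passed, so members called by DESeq2 were named after their values were seen. MHC class II and mesothelial genes (6 tested) had a median log2 fold change of 0.12, opposite in the tumors, and 0 calls. Of the actins other than *Acta2*, 3 were tested, of which 3 were higher in both tumors. Some genes that these rules named are not reported here.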

Additional observations from a re-analysis of the deposited data

How the results depend on the processing

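The number of genes called was the result that depended most on the processing. The main fit called 0 genes higher and 0 lower. DESeq2 called 95 and 87, the fit without a filter on low values 3 and 3, filterByExpr 2 and 1, thinned cells 3 and 3, *Acta2* thresholds of 8 and 3 gave 1 and 2, and the ERCC totals as the library size 1 and 0. For the difference from vCAF-like cells, DESeq2 called 67 and 150 beside 0 and 0. No replicate block gave 0 and 0 in both comparisons. *Actg2* was called in all 5 of these other edgeR fits and *Tagln* in 2. With 1 tumor left out no residual spread remains, so those values carry no test, and the lone tumor's fold changes are given.

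Scaling by ERCC reads raised the all-gene median to 0.56, from 0.02, and the list medians with it, to 1.78 (contractile), -1.21 (universal fibroblast), 0.12 (inflammatory CAF), 0.74 (matricellular) and 0.68 (collagens). A vascular score under 1 gave -1.20 for the universal and 0.48 for the matricellular list. The inflammatory median was -0.81 with thresholds of 8 and 3 and -0.86 without epithelial reads. Leaving out either tumor gave universal medians of -1.76 and -1.18. Of 56 named genes, 47 kept their direction in all 14 alternatives with a test and 46 in each tumor too.

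Directions turned for 9 named genes. *Mylk* had -0.10 with a vascular score under 1. *Mmp13* had 2.92 there, 2.00 with a matrix score of at least 6 and 2.58 without epithelial reads. *Col1a1* had 0.0199 with no replicate block, 0.53 with ERCC totals, 0.0035 without a filter, 0.0010 with filterByExpr, 0.00059 with the higher matrix score and 0.20 without epithelial reads. *Fn1* had 0.36 with ERCC totals, 0.23 with a vascular score under 1 and 0.0776 without cycling cells, and *Fap* 0.39, 0.0073 and 0.0592. *S100a4* had -0.14 with no replicate block. *Cxcl14* had 0.50 with ERCC totals, 0.0467 in thinned cells, 0.34 with a vascular score under 1 and 0.0042 with the higher matrix score. *Ccl2* had -1.45 with thresholds of 8 and 3, -1.93 with a vascular score under 1 and -0.64 without epithelial reads, and *Il6* -0.88 in thinned cells, -1.46 and -0.42. The difference of *Rasl12* from vCAF-like cells was -2.82 with the other score under 1. By tumor, the ranges were -0.23 to 0.23 for *Col1a1*, -0.83 to 0.54 for *Fap*, -0.61 to 2.14 for *S100a4*, -0.00035 to 0.39 for *Pdgfrb*, -0.19 to 0.11 for *Cxcl14*, -0.95 to 2.48 for *Ccl2* and -2.12 to 2.21 for *Il6*. The causes of these changes were not tested.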
